A study of Mus musculus with 12 samples.

Results

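Metalloproteinases and their inhibitors were examined in the epidermis of mice that lack functional Pparg in keratinocytes. Members were taken by name, as every gene of the deposited table whose symbol starts with Mmp, Adam, Adamts, Adamtsl or Timp followed by a digit, and 52 of the 14533 listed genes qualified. They comprised 15 Mmp, 14 Adam, 15 Adamts, 5 Adamtsl and 3 Timp genes. The study sequenced epidermal scrapings from the dorsal skin of 12 untreated C57BL/6 mice, with 1 library per mouse. All 12 mice carried floxed Pparg alleles, with loxP sites around exons 1 and 2. The 6 mice named WT were Pparg(flox/flox) and Cre-/-, and the 6 mice named Pparg-/-epi carried the same alleles with 1 copy of Cre under the Cytokeratin14 (K14) promoter, which is active in the basal keratinocytes of the epidermis and hair follicle. By the labels the WT group held 3 females and 3 males aged 8 to 13 weeks and the Pparg-/-epi group held 4 females and 2 males aged 8 to 13 weeks. Frozen skin was scraped until the vascular bed below the epidermis showed, so cells of the follicles, immune cells and some dermis could be collected with the keratinocytes, and in such bulk samples fewer cells of a type and less RNA per cell cannot be told apart.

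Matrix metalloproteinases (MMPs) are zinc proteinases that cut collagens, elastin and other proteins of the extracellular matrix, and some are held at the cell surface. ADAM proteinases are membrane proteins that cut other membrane proteins close to the cell surface and so release growth factors and cytokines, a step called shedding. ADAMTS proteinases are secreted and bind the matrix through thrombospondin repeats, where they trim procollagens and cut large proteoglycans. ADAMTS-like proteins share the repeats but have no proteinase domain. Tissue inhibitors of metalloproteinases (TIMPs) bind the active site of these enzymes. In skin the group is best known from wound healing, from the hair cycle and from inflamed or ultraviolet-exposed skin. PPARγ, the product of Pparg, is a lipid-activated nuclear receptor.

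Total counts ranged from 10120840 to 18851255 per library, and 3 counts, taken as the floor, were worth 0.159 to 0.296 CPM (counts scaled to a common library size by the TMM method). Pparg itself had 0.53 to 14.3 CPM in WT mice against 1.33 to 6.49 CPM in Pparg-/-epi mice, and because the deletion leaves a shortened transcript that is still counted, these values do not check the genotypes. The summed CPM of 6 basal keratinocyte markers was 8169 to 14630 in WT against 11025 to 15328 in Pparg-/-epi mice. Markers of other cells varied widely between mice. The summed CPM of 12 fibroblast markers was 1217 to 35070 in WT against 6143 to 12628 in Pparg-/-epi mice, that of 16 markers of the growing hair follicle 13.2 to 1077 and 111 to 2845, and that of 8 skeletal muscle markers 12.4 to 10691 and 8.98 to 410. Mast cell markers were altered in 7 of 7 listed genes, all higher in Pparg-/-epi mice (summed CPM 20.5 to 97.4 in WT against 139 to 251 in Pparg-/-epi), and sebocyte markers in 6 of 7, all lower (33.5 to 1036 and 11.1 to 25.9). Follicle stem cell markers, of which 1 of 7 was altered (Krt15, lower), summed to 2679 to 4640 and 939 to 1627 CPM. Krt15 alone supplied 2058 to 4407 and 600 to 1423 CPM, and 4 of the 7 genes had a log2 fold change above 0, so the list did not fall as a whole. The 10 endothelial markers, of which 1 was altered (Emcn, higher), summed to 12.3 to 177 and 57.7 to 268 CPM. The part of these cells in the altered members was not tested. RNA integrity numbers (RIN, a measure of RNA degradation in which higher is better) were 5.9 to 8.6 in WT against 5.7 to 8.6 in Pparg-/-epi mice. WT replicate 2 stood apart for this group of genes. It was the highest WT mouse for 29 of 52 members (55.8%), against 27% of all listed genes.

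Of the 52 members, 37 had more than 0.5 CPM in all 12 mice, and 3 (Adamts12, Adam3 and Adamtsl2) passed this level in only 6 mice, the fewest that the table allows. None had passed through 1 group alone, but Adam3 passed in 5 WT mice and 1 Pparg-/-epi mouse, so mainly through the group where it was higher. Adamts12 and Adamtsl2 each passed in 2 WT and 4 Pparg-/-epi mice. Every member exceeded 0.5 CPM in at least 1 mouse of each group, and 5 had a count of 0 in some mouse. RefSeq names 85 protein-coding mouse genes of the same pattern, and the remaining 33 were not analysed here.

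Levels between genes were compared per exon length, as RPKM (CPM per kilobase of counted exon). In WT mice the highest mean belonged to Timp2 with 53.2 ± 53.6 RPKM (SD, n = 6). Mmp14, which activates the precursor of Mmp2 at the cell surface, followed with 48.7 ± 30.5, and Mmp2, a gelatinase, with 45.9 ± 44.3. The shedding enzymes Adam17 and Adam10 had 31.0 ± 3.34 and 28.0 ± 4.16 RPKM, Timp3, a matrix-bound inhibitor, had 30.7 ± 20.8 and Adam15 had 24.1 ± 3.49. These means lay within the spread between mice of their neighbours in the order, so the order among them is not settled. Adamts14, a procollagen N-proteinase, had 19 ± 3.57 RPKM and Adamtsl5, a binding partner of fibrillins, 17.5 ± 1.92. Most other members were rare, and the median member had 2.05 RPKM in WT mice against 8.14 for all listed genes. By subgroup the median was 3.26 RPKM for Mmp, 3.04 for Adam, 0.564 for Adamts, 0.782 for Adamtsl and 30.7 for Timp genes.

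**Figure D1:**
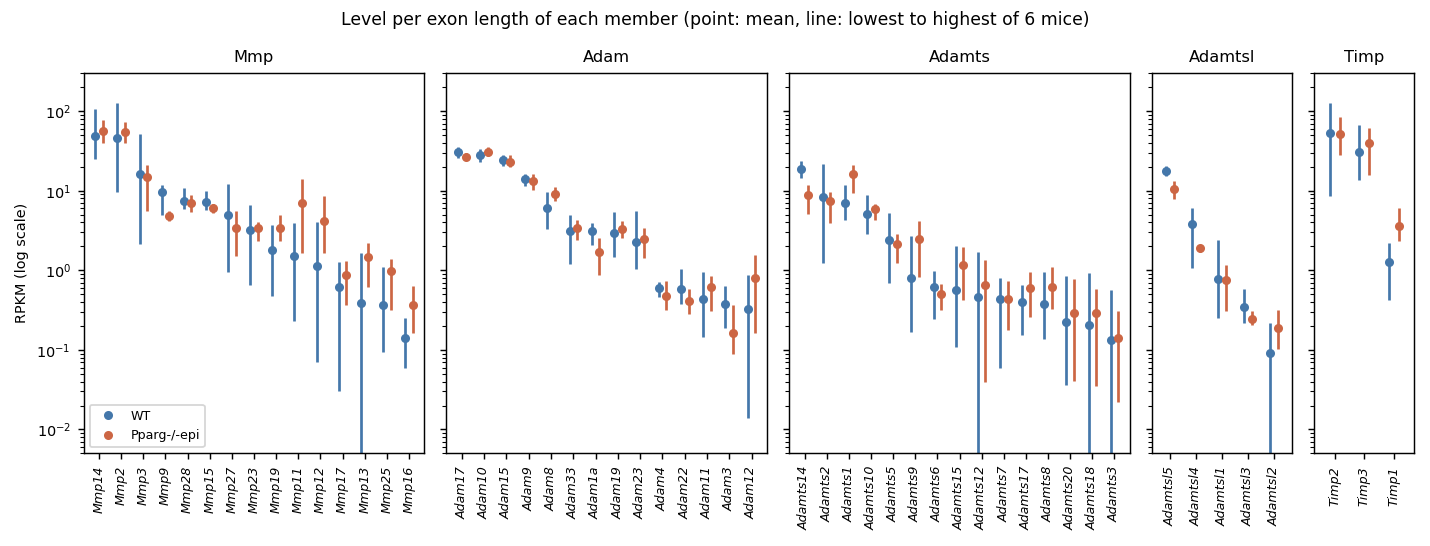
Level of each member in RPKM on a log scale, by subgroup, in WT (blue) and Pparg-/-epi (orange) mice. Points are means of 6 mice, lines run from the lowest to the highest mouse, and a line that meets the lower edge has a mouse at 0; the abundant Adam genes span a narrow range while Mmp2 and Timp2 span from 9.54 to 128 and from 8.52 to 128 RPKM in WT mice.

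Which members differed between the genotypes was asked with edgeR's quasi-likelihood test over all 14533 genes. Genes past 0.6 in log2 fold change, in either direction, with a Benjamini-Hochberg adjusted p under 0.05 were called altered, and adjusted p-values come from this test where no other is named. In the comparison of 6 WT with 6 Pparg-/-epi mice, 6 of 52 members were altered (11.5%), close to the 10.3% of all listed genes. Adamts1 and Timp1 were higher in Pparg-/-epi mice, where 5.19% of all genes were higher. Adamts14, Adamtsl5, Mmp9 and Adam1a were lower, where 5.08% of all genes were lower. In 3 of 52 members (5.77%), Adamts14, Adamtsl5 and Timp1, the CPM of the groups did not overlap, against 7.9% of all genes. The altered members lie on separate chromosomes or far apart in mm10. Timp1 spans 20870166 to 20874737 of chromosome X, Mmp9 spans 164948219 to 164955849 of chromosome 2 and Adam1a spans 121518604 to 121521695 of chromosome 5. Adamts1 spans 85793828 to 85803115 of chromosome 16. Adamts14 and Adamtsl5 are both on chromosome 10, from 61197112 to 61273438 and from 80339793 to 80348448.

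The median log2 fold change was 0.13 over the members and -0.01 over all genes. Single members were measured less precisely than most genes. The median SD of log2 CPM between WT mice was 0.91 for members and 0.32 for all genes, and the median standard error of the log2 fold change was 0.43 against 0.17. A total of 19 of 52 members (36.5%) had a log2 fold change of at least 0.6 in size, against 20.8% of all genes, although the share that also passed the test was close to the background. The subgroups differed in this spread. The median SD of log2 CPM between WT mice was 1.1 for Mmp, 0.55 for Adam, 1.21 for Adamts, 0.92 for Adamtsl and 0.93 for Timp genes. These subgroup values are descriptions and their differences were not tested.

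**Figure D2:**
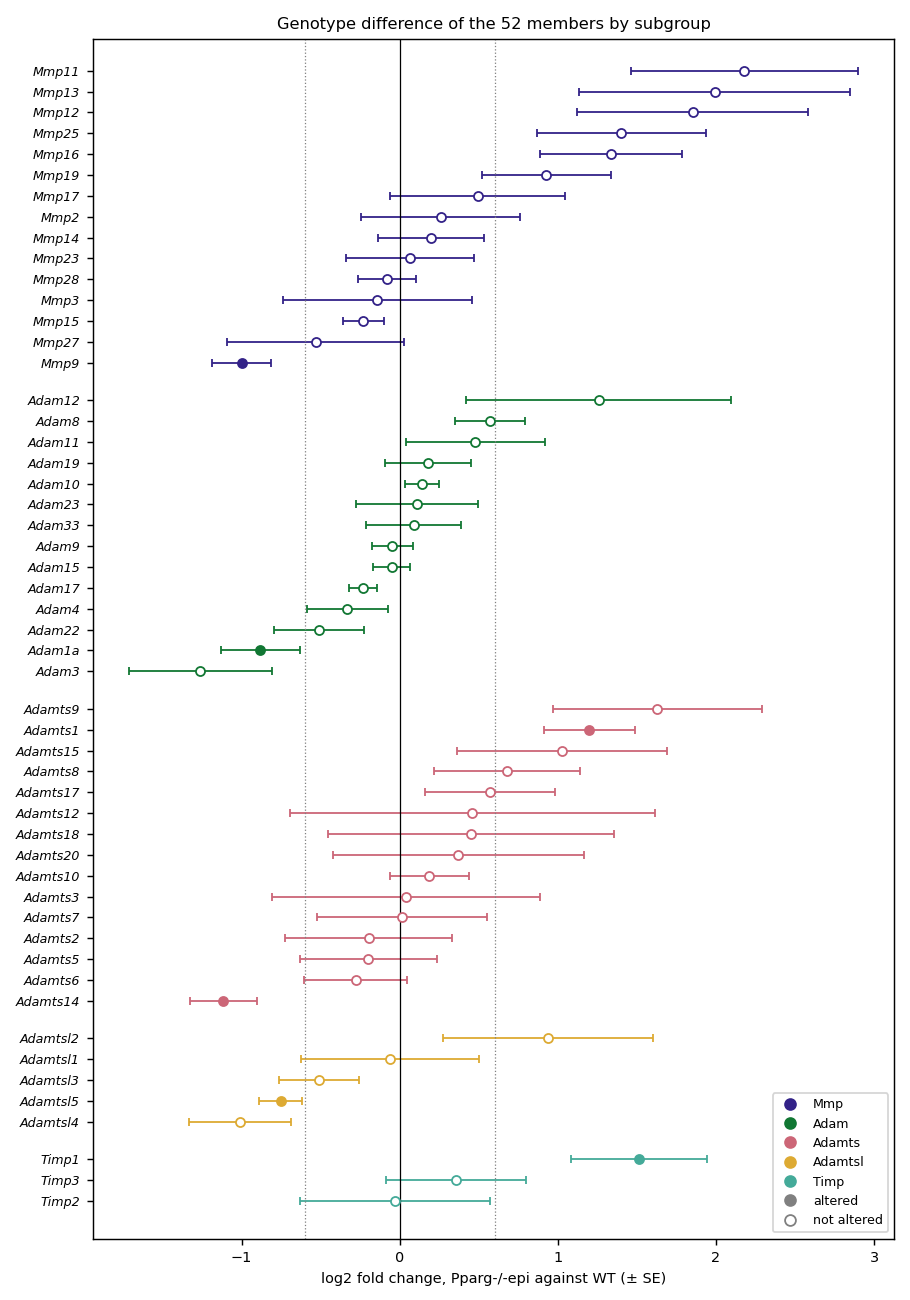
Log2 fold change of each of the 52 members, Pparg-/-epi against WT, with its standard error, ordered within subgroups. Filled points are the 6 altered members and dotted lines mark 0.6 in either direction; Mmp11 with 2.18 lies farthest from 0 and is not among the filled points.

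Among the inhibitors, Timp1 was altered. It had 1.85, 1.96, 1.39, 0.60, 0.63 and 0.38 CPM in the WT mice and 4.79, 5.34, 2.42, 2.16, 2.08 and 2.75 CPM in the Pparg-/-epi mice. The groups did not overlap, but the lowest Pparg-/-epi mouse was only just above the highest WT mouse, and the counts behind these values ran from 6 to 92. The log2 fold change was 1.51 (SE 0.43, adjusted p = 0.0325). The call was lost without any of WT replicates 4, 5 and 6 (adjusted p = 0.0724, 0.0660 and 0.0563) or Pparg-/-epi replicates 7, 8 and 9 (adjusted p = 0.0814, 0.0801 and 0.0509), with log2 fold changes from 1.30 to 1.57 in these fits. With all mice Timp1 was also called by edgeR's likelihood ratio test (adjusted p = 0.00862) and by DESeq2 (0.00692). The study lists Timp1 among its altered genes. Timp1 made up 1.94 ± 1.28% (SD, n = 6) of the summed RPKM of the Timp genes in WT against 4.10 ± 1.17% in Pparg-/-epi mice, so it remained the rarest of the 3 inhibitors. Endothelial markers summed to 105, 177, 16.1, 27.2, 56.3 and 12.3 CPM in WT mice and 227, 268, 246, 57.7, 115 and 72.2 CPM in Pparg-/-epi mice, with WT replicates 1 and 2 highest in WT as for Timp1. The same mice were also highest in WT for the summed fibroblast, macrophage and sebocyte markers, so this order is not particular to endothelial markers. The part of these cells in the level of Timp1 was not tested.

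Timp2 and Timp3 supplied the rest, and neither was altered. Timp2, which also takes part in the activation of Mmp2, had 417, 465, 70.3, 86.6, 85.7 and 30.8 CPM in WT mice and 260, 306, 223, 103, 139 and 103 CPM in Pparg-/-epi mice. WT replicates 1 and 2 lay above all Pparg-/-epi mice and the other WT mice below the lowest of them. Its log2 fold change was -0.03 (SE 0.60, adjusted p = 0.985) and turned positive without WT replicate 1 (0.34) or 2 (0.45) and, by less than 0.1, without any of Pparg-/-epi replicates 10, 11 and 12. Timp3 had a log2 fold change of 0.35 (SE 0.44, adjusted p = 0.650).

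Among the matrix metalloproteinases, 1 of 15 was altered. Mmp9, the gelatinase B of neutrophils and keratinocytes, had 15.8, 31.6, 36.7, 37.3, 31.8 and 29.3 CPM in WT mice and 17.5, 17.6, 13.1, 13.1, 16.4 and 13.4 CPM in Pparg-/-epi mice. WT replicate 1 lay among the Pparg-/-epi mice, and the other WT mice lay above all of them. This was a log2 fold change of -1.0 (SE 0.19, adjusted p = 0.00390), which is 2.00-fold lower. It was called in 12 of 12 fits that left out a mouse, with log2 fold changes from -1.14 to -0.93, and in female mice alone (-1.02, adjusted p = 0.0163). Of 8 neutrophil markers 2 were listed in the table. They summed to 0.94 to 4.92 CPM in WT against 9.71 to 17 CPM in Pparg-/-epi mice. Cxcr2, the 1 altered gene of these 2, alone supplied 0 to 2.88 and 7.57 to 13.9 CPM, so the sum does not describe neutrophil markers as a set. The part of neutrophils in the level of Mmp9 was not tested.

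**Figure D3:**
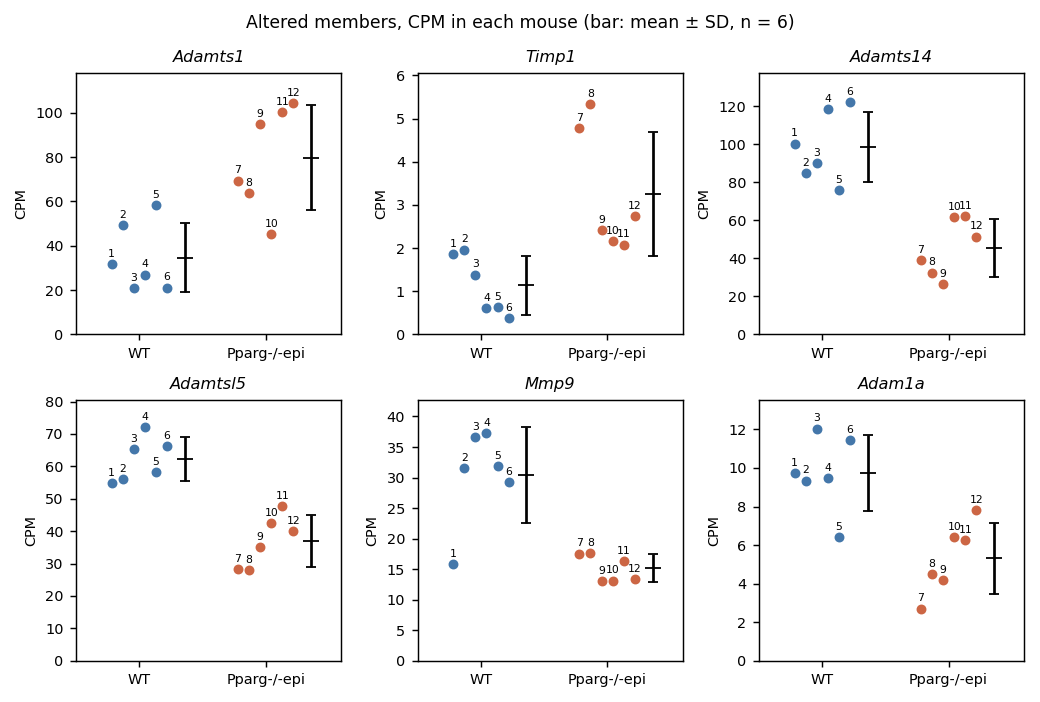
CPM of the 6 altered members in each mouse, numbered by replicate, with the mean and SD of 6 mice per group. Adamts14, Adamtsl5 and Timp1 do not overlap between groups; in Mmp9 only WT replicate 1 with 15.8 CPM falls among the Pparg-/-epi mice.

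Several Mmp genes had larger fold changes than Mmp9 but did not pass the quasi-likelihood test. Mmp11, stromelysin-3, had 7.22, 9.07, 0.53, 1.14, 2.21 and 0.57 CPM in WT mice and 22.6, 31.7, 13.8, 3.74, 15.5 and 8.07 CPM in Pparg-/-epi mice. Its exons overlap with those of Chchd10 on the other strand, whose part in these values was not tested. Pparg-/-epi replicates 10 and 12 overlapped with WT replicates 1 and 2. The log2 fold change of 2.18 (SE 0.72) came with an adjusted p of 0.0585, and the gene was called without WT replicate 1 (adjusted p = 0.0485), WT replicate 2 (0.0168) or Pparg-/-epi replicate 10 (0.0441). It was also called by edgeR's likelihood ratio test (adjusted p = 0.0184), by DESeq2 (0.00758) and with RIN in the model (0.0346). Mmp16, a membrane-type enzyme, had 0.27 to 1.17 CPM in WT against 0.75 to 2.91 CPM in the other group, a log2 difference of 1.33 (SE 0.45, adjusted p = 0.0637). It too was called without WT replicate 1 (adjusted p = 0.0468), WT replicate 2 (0.0296) or Pparg-/-epi replicate 10 (0.0463), and by the likelihood ratio test (0.0326) and DESeq2 (0.0410). Mmp25, a membrane-anchored enzyme of leukocytes, had a log2 fold change of 1.40 (SE 0.54, adjusted p = 0.0982) and was called without WT replicate 2 (adjusted p = 0.00480). Mmp19 had 0.93 (SE 0.41, adjusted p = 0.148) and was called without WT replicate 1 (adjusted p = 0.0461). These low Mmp genes were chosen for description after their values were seen.

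The abundant Mmp genes showed no difference that could be told from the spread between mice. Mmp2 had 388, 200, 86.6, 72.7, 62.0 and 29.0 CPM in WT mice and 226, 207, 176, 121, 146 and 126 CPM in the other group. The WT values enclosed those of the Pparg-/-epi mice on both sides. On the log2 scale the fold change was 0.26 (SE 0.50, adjusted p = 0.781), and that of Mmp14 was 0.20 (SE 0.34, adjusted p = 0.746). Fibroblast markers ran the same way across WT mice, with a summed CPM of 35070, 11206, 7478, 3774, 8543 and 1217 in WT replicates 1 to 6. WT replicate 1 was highest and WT replicate 6 lowest for both the markers and Mmp2. With the log2 of this sum as a covariate, an alternative added after the data were seen, the log2 fold change of Mmp2 was 0.36 (adjusted p = 0.307).

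Some Mmp genes adjoin on chromosome 9. Mmp13, Mmp12, Mmp3 and Mmp27 lie next to each other among the listed genes, in this order, from 7272514 to 7581393 of chromosome 9 (mm10). Mmp13 encodes a collagenase, Mmp12 the macrophage elastase and Mmp3 stromelysin-1. RefSeq promoters (GRCm38.p6, the assembly of mm10) were matched by symbol for 34 of the 52 members, and the last 150 bases before the start of 3 neighbours are shown because each holds the letters TGAGTCA or their reverse complement TGACTCA, the site known to bind AP-1, a transcription factor of growth factor and inflammatory signalling. Capitals mark this site and the letters TATAAA, and all 3 sequences are on the plus strand.
Mmp13, chr9:7272364-7272513: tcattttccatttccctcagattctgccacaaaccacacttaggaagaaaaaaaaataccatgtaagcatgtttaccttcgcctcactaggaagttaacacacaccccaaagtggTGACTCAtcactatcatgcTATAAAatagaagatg
Mmp12, chr9:7347224-7347373: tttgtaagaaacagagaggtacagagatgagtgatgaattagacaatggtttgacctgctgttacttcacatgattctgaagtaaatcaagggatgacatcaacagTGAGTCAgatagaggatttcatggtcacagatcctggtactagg
Mmp3, chr9:7445672-7445821: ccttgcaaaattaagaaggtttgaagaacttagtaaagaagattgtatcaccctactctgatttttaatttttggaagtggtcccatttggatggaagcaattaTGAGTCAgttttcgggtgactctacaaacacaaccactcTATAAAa
Among 34 members with a promoter, 4 (11.8%) held the AP-1 letters on either strand within 250 bases before to 50 after the start, namely these 3 and Adam19, against 5.2% of all 32851 RefSeq promoters of the same length. Here and below a member counted once if any of its promoters held the letters, whereas the background counted each promoter, so the shares are not strictly alike. The letters TATAAA, on either strand, were in 5 of 34 (14.7%) and in 13.6% of all promoters. In Mmp12 they lie after the annotated start and so outside the sequence shown, and RefSeq lists a second promoter for Mmp12 at chr9:7344247-7344396 with neither set of letters. The PPAR response element AGGTCANAGGTCA was in none of the 34 and in 0.0396% of all promoters. With letters this rare, the result among 34 could hardly have come out otherwise and says nothing about the members.

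The values of these neighbours in each mouse were as follows. Mmp13 had 1.02, 0.26, 4.48, 0, 0.47 and 0.063 CPM in WT mice and 5.88, 4.49, 3.63, 1.66, 2.71 and 5.24 CPM in Pparg-/-epi mice. WT replicate 3, with 42 counts, lay among the Pparg-/-epi mice and the other WT mice lay below all of them. Its log2 fold change was 1.99 (SE 0.86, adjusted p = 0.140), and the gene was called without WT replicate 3 (3.41, adjusted p = 0.00894). Mmp12 had 4.22, 14.5, 1.17, 3.09, 1.42 and 0.25 CPM in WT mice and 21.7, 31.3, 12.4, 8.32, 10.8 and 5.93 CPM in Pparg-/-epi mice. Here WT replicate 2 was the WT mouse that overlapped with the other group. The genotypes differed by a log2 fold change of 1.85 (SE 0.73, adjusted p = 0.109), and Mmp12 was called without WT replicate 2 (2.87, adjusted p = 0.00604), by DESeq2 (1.87, adjusted p = 0.0326) and with RIN in the model (1.81, adjusted p = 0.0265). Summed macrophage markers were highest in the same WT mouse, at 830 CPM against 94.7 to 415 in the other WT mice, and 260 to 478 among the Pparg-/-epi group, and 0 of 9 were altered. WT replicate 2 was also highest in WT for endothelial, adipocyte, mast cell, Langerhans cell, sebocyte and growing hair follicle markers, so macrophage markers do not stand out in this. The part of these cells in the level of Mmp12 was not tested. Mmp3 had 94.2 CPM in WT replicate 1 and 3.84 to 30.5 CPM in the other WT mice, against 10.0 to 37.6 CPM in the other group. The log2 fold change was -0.14 (SE 0.60, adjusted p = 0.908) and became 0.70 without WT replicate 1 and 0.03 without Pparg-/-epi replicate 11. Mmp27 had -0.53 (SE 0.56, adjusted p = 0.579).

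**Figure D4:**
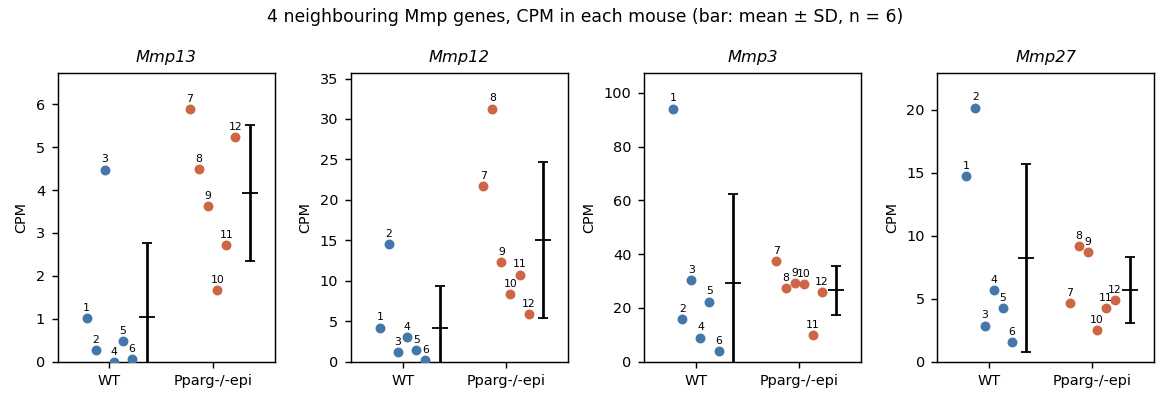
CPM in each mouse, numbered by replicate, of 4 Mmp genes that adjoin on chromosome 9, with the mean and SD of 6 mice per group (bars that would pass below 0 end at the axis). A different WT mouse is highest in Mmp13 (replicate 3), in Mmp12 and Mmp27 (replicate 2) and in Mmp3 (replicate 1).

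The Adam genes had the lowest median SD of log2 CPM between WT mice among the subgroups, 0.55, and in Pparg-/-epi mice 0.35 against 0.31 for the Adamtsl genes. Adam17, which sheds TNF and several ligands of the epidermal growth factor receptor, had 118 to 160 CPM in WT against 111 to 136 CPM in Pparg-/-epi mice (log2 fold change -0.23, SE 0.09, adjusted p = 0.0903). Adam10, a shedding enzyme of Notch and cadherins, had 107 to 153 and 126 to 162 CPM (0.14, SE 0.11, adjusted p = 0.421). Neither was altered, and the standard errors were small. Summed over the 14 Adam genes, the level was 117 ± 10.2 RPKM (SD, n = 6) in WT against 116 ± 6.34 RPKM in Pparg-/-epi mice.

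Adam1a was the altered Adam gene. It encodes a member of the family best known from the testis. It had 9.72, 9.34, 12.0, 9.48, 6.40 and 11.5 CPM in WT mice and 2.70, 4.49, 4.18, 6.40, 6.24 and 7.82 CPM in Pparg-/-epi mice, and WT replicate 5 lay among the Pparg-/-epi mice. This was a log2 fold change of -0.88 (SE 0.25, adjusted p = 0.0304). It was lost without any of WT replicates 3, 4 and 6 (adjusted p = 0.0636, 0.0555 and 0.0650) or Pparg-/-epi replicates 8 and 9 (0.0572 and 0.0623). This value is uncertain as a measure of Adam1a, because 77% of its 75-base stretches also occur in transcripts of other genes (Adam1b, Gm42878 and Mapkapk5) and its exons overlap with Mapkapk5 on the same strand. Adam3, known as a sperm protein, had 0.50 to 1.70 CPM in WT against 0.24 to 1.00 CPM in Pparg-/-epi mice (log2 fold change -1.26, SE 0.45, adjusted p = 0.0783), on 4 to 32 counts per mouse. It was called without Pparg-/-epi replicate 11 (adjusted p = 0.0267) and by the likelihood ratio test (0.0487). Adam8, an enzyme of leukocytes, had a log2 fold change of 0.57 (SE 0.22, adjusted p = 0.105) and was called without WT replicate 1 (0.72, adjusted p = 0.0337). Adam12 had 1.26 (SE 0.84, adjusted p = 0.349).

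Among the Adamts genes, 1 was higher and 1 lower of 15. Adamts1, a secreted enzyme that cuts the proteoglycans versican and aggrecan, had 31.6, 49.3, 20.9, 27.0, 58.2 and 21.1 CPM in WT mice and 69.4, 63.7, 94.7, 45.3, 100 and 104 CPM in Pparg-/-epi mice. Only Pparg-/-epi replicate 10 lay within the range of the WT mice. On the log2 scale the fold change was 1.20 (SE 0.29, adjusted p = 0.0144), or 2.29-fold, and stayed between 1.09 and 1.41 and called in 12 of 12 fits that left out a mouse. Adamts1 and Timp1 are the 2 higher members, and the 150 bases before their RefSeq starts are shown for that reason. TATAAA is in capitals where it occurs. Neither window of 250 bases before to 50 after the start holds the AP-1 letters, and Adamts1 is on the minus strand.
Adamts1, chr16:85803114-85803263: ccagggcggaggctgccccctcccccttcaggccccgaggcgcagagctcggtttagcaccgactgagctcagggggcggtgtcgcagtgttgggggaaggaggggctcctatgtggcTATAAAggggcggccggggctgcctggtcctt
Timp1, chrX:20870016-20870165: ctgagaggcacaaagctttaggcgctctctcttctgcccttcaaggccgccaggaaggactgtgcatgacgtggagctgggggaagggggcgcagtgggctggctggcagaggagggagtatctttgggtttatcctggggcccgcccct
Adamts14, which removes the N-terminal propeptide of fibrillar procollagens, had 100, 84.9, 89.9, 118, 76.0 and 122 CPM in WT mice and 39.2, 32.5, 26.4, 61.8, 62.1 and 51.4 CPM in Pparg-/-epi mice. The lowest WT mouse was above the highest Pparg-/-epi mouse. Its log2 fold change was -1.12 (SE 0.21, adjusted p = 0.00445), or 2.17-fold lower, and it was called in 12 of 12 fits that left out a mouse (-1.22 to -1.02).

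Adamts2, the other abundant procollagen N-proteinase, differed from Adamts14 in its spread. It had 196, 107, 54.0, 22.8, 69.0 and 11.1 CPM in WT mice against 35.7 to 88.8 CPM in Pparg-/-epi mice, with WT replicate 1 highest and WT replicate 6 lowest, as for the fibroblast markers. Its log2 fold change was -0.20 (SE 0.53, adjusted p = 0.848) and became 0.33 without WT replicate 1. Of 12 fibroblast markers 1 was altered, Postn, higher in Pparg-/-epi mice, and of 21 listed matrix substrates 0 were altered, with summed CPM of 4769 to 39233 in WT against 8982 to 14676 in Pparg-/-epi mice. Adamts9, which also cuts versican, had 4.54, 16.1, 1.49, 1.01, 3.64 and 2.01 CPM in WT mice and 22.6, 25.3, 22.2, 5.91, 9.13 and 4.98 CPM in Pparg-/-epi mice. WT replicate 2 was the WT mouse that lay highest. The log2 fold change of 1.63 (SE 0.66) did not pass the test (adjusted p = 0.119) and passed it without WT replicate 2 (2.55, adjusted p = 0.00567), as it did with DESeq2 (adjusted p = 0.0405). The neighbours Adamts15 and Adamts8 on chromosome 9 also passed only without WT replicate 2, among the planned settings, with log2 fold changes of 1.03 (SE 0.66, adjusted p = 0.335) and 0.68 (SE 0.46, adjusted p = 0.363), and 2.07 (adjusted p = 0.0110) and 1.18 (adjusted p = 0.0462) without WT replicate 2.

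Of the Adamtsl genes 1 of 5 was altered. Adamtsl5 had 54.9, 56.1, 65.4, 72.2, 58.2 and 66.3 CPM in WT mice and 28.2, 28.1, 35.0, 42.4, 47.7 and 40.1 CPM in Pparg-/-epi mice, with no overlap. The genotypes differed by a log2 fold change of -0.75 (SE 0.14, adjusted p = 0.00351), the smallest change among the altered members and the smallest adjusted p among all 52. It was called in 12 of 12 fits that left out a mouse (-0.84 to -0.70). As for Adamts14, Pparg-/-epi replicates 7, 8 and 9 had the lowest values. Among the mice whose names carry a number of 222 or above, the log2 fold change was -0.57 (adjusted p = 0.0458), short of 0.6 and so not called. With this number in the model it was -0.64 and called (adjusted p = 0.00240). Adamtsl4, a protein of fibrillin microfibrils, had 19.6, 24.5, 4.26, 11.9, 21.3 and 10.5 CPM in WT mice and a narrow 6.96 to 8.43 CPM in Pparg-/-epi mice. WT replicate 3 lay below all Pparg-/-epi mice and the other WT mice above them. The log2 fold change was -1.01 (SE 0.32, adjusted p = 0.0520), and it passed without WT replicate 3 (-1.20, adjusted p = 0.00443). It also passed by the likelihood ratio test (adjusted p = 0.0255), by DESeq2 (0.0152) and with RIN in the model (0.0353). Summed over the subgroup, the level was 19.9 to 24.9 RPKM in WT against 11.3 to 16.2 RPKM in Pparg-/-epi mice, and Adamtsl5 supplied most of it.

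Without WT replicate 2 the number of altered members was 13 of 52 (25%), of which 9 were higher, where 15.5% of all genes were altered and 8.97% higher. The 6 altered members were among the 13, and Mmp11, Mmp12, Mmp16, Mmp25, Adamts8, Adamts9 and Adamts15 were added, all higher. WT replicate 2 was the highest WT mouse for 29 of 52 members (55.8%, against 27% of all genes). Leaving it out lowers the WT means of those members, so the added calls are no separate support for a rise. Without WT replicate 1 the number was 10 of 52 (19.2%), where 10.6% of all genes were altered. It was also 10 with the fibroblast marker level in the model, where 9.73% of all genes were altered. Among the mice whose names carry a number of 222 or above, 1 of 52 members was altered (Mmp9), where 3.65% of all genes were. Of 52 members 0 had a genotype by sex interaction at an adjusted p under 0.05, and neither had any of the 14533 genes (0%), with 2 members at an unadjusted p under 0.05 (5.1% of all genes), and the smallest adjusted p was 0.895. edgeR's likelihood ratio test found 0 such members as well.

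Some of the spread between mice ran with RNA quality, in a fit whose calls lay close to the threshold. The fit, with RIN beside genotype, was added after the data were seen, and a gene was counted as rising with RIN at a log2 change of at least 0.6 per RIN unit and an adjusted p under 0.05. Of the 52 members 9 rose with RIN (17.3%), where 3.17% of all genes rose and 3.25% passed in either direction, and 0 fell. They were Adamts3, Adamts9, Adamts12, Adamts15, Adamts18, Adamts20, Adamtsl1, Mmp12 and Timp2. The steepest was Adamts12, an enzyme that cuts cartilage oligomeric matrix protein, with a log2 change of 1.71 per RIN unit (adjusted p = 0.0396). It had 6.01, 10.6, 0.21, 0.27, 0.40 and 0 CPM in WT mice, whose RIN was 7.4, 8.6, 6.1, 7.1, 5.9 and 6.2, and 7.13, 8.49, 7.03, 0.25, 0.90 and 0.34 CPM in Pparg-/-epi mice, whose RIN was 8.6, 8.5, 7.7, 7.7, 5.7 and 7.1. Values were above 6 CPM in WT replicates 1 and 2 and Pparg-/-epi replicates 7, 8 and 9, and below 1 CPM in the other mice. Of these high mice all but WT replicate 2 carry a number of 217 or below in their names. WT replicate 2 and all mice below 1 CPM carry 222 or above. The RIN fit was not run with this number in the model, so RIN and the number were not separated. Adamts20, known for its part in the migration of pigment cell precursors, followed with 1.31 per RIN unit (adjusted p = 0.0385) and Adamts3, a further procollagen N-proteinase, with 1.17 (adjusted p = 0.0390). The 9 adjusted p-values lay between 0.0385 and 0.0464, and the count changed when single mice were left out. It was 0 without any of WT replicates 2, 3 and 6 or Pparg-/-epi replicates 7, 8 and 12, and 3, 5 and 6 without WT replicate 5, Pparg-/-epi replicate 9 and WT replicate 1. Leaving out Pparg-/-epi replicate 11 gave 16. The slopes of the 9 genes moved less than the count, from 0.74 to 1.71 per RIN unit with all mice to 0.41 to 1.66 without WT replicate 2 and 0.68 to 1.64 without WT replicate 3. The count was also 0 with the fibroblast marker level as a further covariate, with slopes of 0.46 to 1.38, and with the growing hair follicle level, with slopes of 0.55 to 1.80. For the fits with a mouse left out or a marker level added, the share of all genes was not worked out. These counts are therefore not read as results about the members. The growing hair follicle markers summed to 1077 CPM in WT replicate 2 and to 846 and 2845 CPM in Pparg-/-epi replicates 7 and 8, the mice with RIN of 8.5 or more, and to 13.2 to 444 CPM in the rest. The relation with RIN was not strict, since Pparg-/-epi replicates 9 and 10 shared a RIN of 7.7 and had 40 and 11 of 52 members above their mean over all mice.

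**Figure D5:**
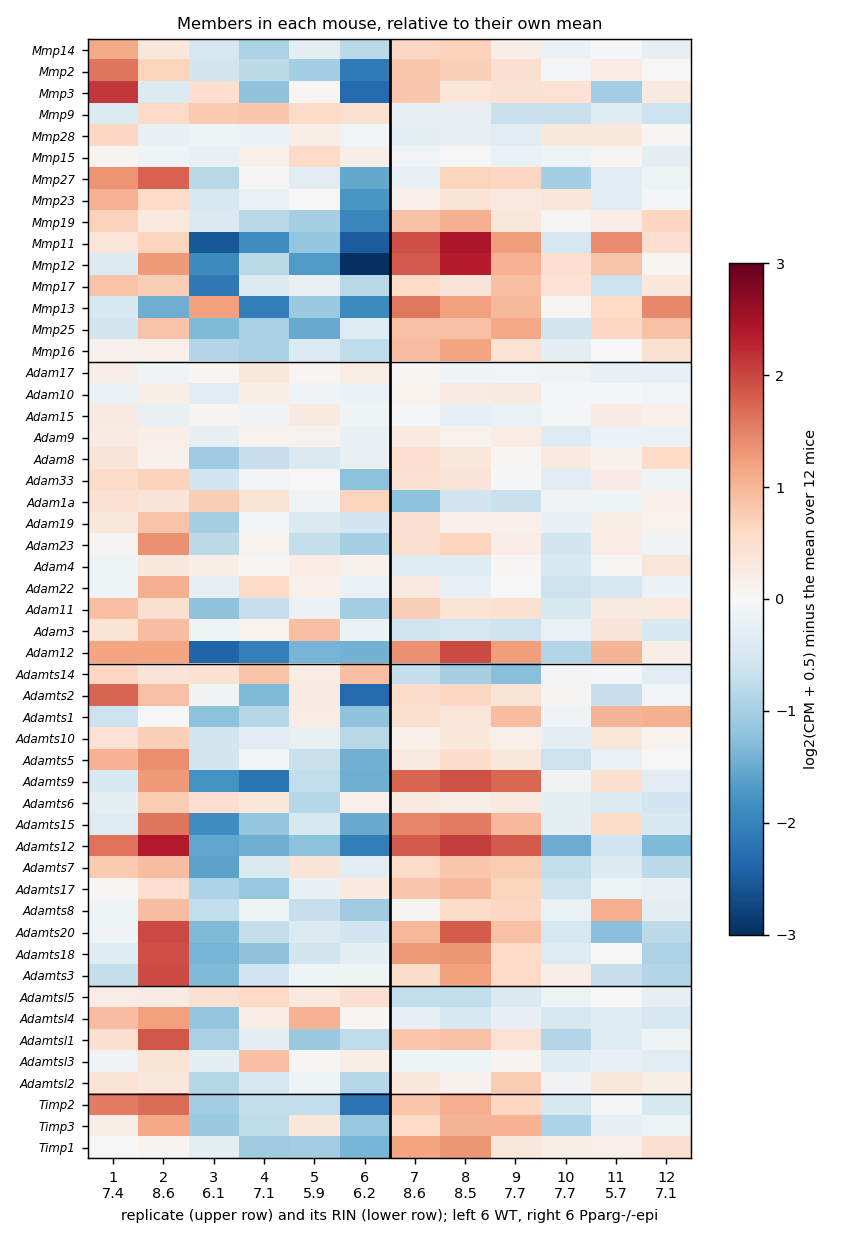
Each member in each mouse as log2(CPM + 0.5) minus its mean over the 12 mice, in rows by subgroup, with the replicate number and RIN below each column and a line between WT (left) and Pparg-/-epi mice (right). Red is above and blue below the member's own mean; the mice with RIN of 8.5 or more, WT replicate 2 and Pparg-/-epi replicates 7 and 8, hold 45, 40 and 40 members above their mean, while the abundant Adam genes stay near white.

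Genes that act with the group were listed as regulators, as other proteinases of the same fold, as shed membrane proteins and as matrix substrates. Among the regulators, Furin was altered and higher in Pparg-/-epi mice. This enzyme, which removes the propeptide of several of these enzymes, had 82.3 ± 25.1 CPM (SD, n = 6) in WT against 139 ± 27.3 CPM in Pparg-/-epi mice (log2 fold change 0.76, SE 0.20, adjusted p = 0.0208), and the call was lost without WT replicate 4 (adjusted p = 0.0501) or Pparg-/-epi replicates 7 (0.0621) or 9 (0.0540). Of 4 listed metzincins outside the group 0 were altered. Among 28 listed membrane proteins known to be shed by Adam enzymes, 6 were higher and 3 lower (32.1% altered, against 10.3% of all genes). The list was chosen with earlier results of these data known, and the study reports Cxcl16, Tnf, Tnfrsf1b, Il1r2 and Fas among its altered genes. This share is therefore no test of shed proteins as a group. Cxcl16, a membrane-bound chemokine, had 65.7 ± 7.23 and 149 ± 23.1 CPM (1.18, SE 0.11, adjusted p = 8.44e-05). Cd44, a hyaluronan receptor, had 243 ± 64.2 and 561 ± 82.0 CPM (1.21, SE 0.17, adjusted p = 0.000965), and Hbegf, a ligand of the epidermal growth factor receptor, had 7.06 ± 2.52 and 34.6 ± 21.4 CPM (2.29, SE 0.37, adjusted p = 0.00175). The lower genes were Btc, Fas and Il1r2. Btc, also a ligand of this receptor and named after its values were seen, had 194 ± 75.3 and 62.8 ± 26.2 CPM (-1.63, SE 0.30, adjusted p = 0.00344). The values are transcript levels, and no proteinase activity or shed protein was measured.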

How the data were processed

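RNA from scraped dorsal epidermis of 6 WT and 6 Pparg-/-epi mice was sequenced as paired-end reads of poly(A)-selected libraries. The authors aligned reads to mm10 with STAR 2.5.2b, dropped reads of low quality or with several alignments, and made gene counts with featureCounts (Subread 1.5.1), as the study's methods and the submitters' processing notes give. The strand setting is not given in the sources used here, so a gene and an overlapping gene on the other strand cannot be told apart. Members whose annotated exons overlap with such genes are Adam1a, Adam3, Adam8, Adam15, Adam17, Adam19, Adamts7, Adamts8, Adamts9, Mmp11, Mmp12, Mmp19, Mmp28 and Timp3. The deposited values are raw counts per gene. The table lists 14533 genes, each over 0.5 CPM in at least 6 mice, and 2800 blank rows were dropped. The columns of 2 Pparg-/-epi mice (replicates 11 and 12) were matched through the mouse names in the labels and the study's list of sequenced mice.

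Counts were scaled by TMM and tested with edgeR 4.0.16 in R 4.3.3 (quasi-likelihood test, genotype as the only term, Benjamini-Hochberg adjustment over all 14533 genes). The study's methods name edgeR's likelihood ratio test, and both this test and DESeq2 1.42.0 served as alternatives. Standard errors are the log2 fold change divided by the square root of F. RPKM is CPM divided by the deposited exon length in kilobases. Shared sequence was the share of a gene's 75-base stretches found in transcripts of other genes. Promoters were RefSeq sequences (GRCm38.p6), and motifs were searched on both strands. Plots were made in Python 3.11.15 with matplotlib 3.10.9.

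Members and lists were chosen with earlier results of these data known. The genes to name were every altered member, the 2 members of each subgroup with the highest WT RPKM, the unaltered member of each subgroup with the largest fold change, members without overlap between groups, Pparg, and up to 3 altered genes of each list with the smallest adjusted p. Of these list genes, those of the pathway lists, Cxcr2, Postn, Krt15 and Emcn are named in the report. A result for the regulator list is not reported here. Mmp3, Mmp12, Mmp13, Mmp16, Mmp19, Mmp25, Mmp27, Adam8, Adam12, Adamts8, Adamts15 and the genes rising with RIN were added after their values were seen. The floor covers counting error only, while the standard errors and SDs include the spread between mice.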

Additional observations from a re-analysis of the deposited data

Results flagged for a closer look

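Over 54 named genes and 108 groups of 6 mice, 5 groups held a mouse whose gap to its nearest neighbour, on the log2 CPM scale, was past Dixon's 95% limit, and chance flags about 1 in 20. Mmp9 in WT mice had its lowest value in replicate 1, 15.8 CPM against 29.3 to 37.3 CPM in the other 5 mice, and without this mouse its log2 fold change was -1.14. Mmp25 in Pparg-/-epi mice had its lowest value in replicate 10, 1.08 CPM against 3.07 to 4.66 CPM. Mmp3 in Pparg-/-epi mice had its lowest value in replicate 11, 10.0 CPM against 25.8 to 37.6 CPM. The mast cell genes Cma1 and Cpa3 in WT mice had their lowest values in replicate 6, 3.02 and 4.72 CPM.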

How the results depend on the processing

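The 6 altered members became 10 with edgeR's likelihood ratio test (11.8% of all genes altered), 11 with DESeq2 (12.3%), 3 in female mice alone (4.48%; Adamts14 and Mmp9 lower, Mmp13 higher with a fold that depends on the prior count, since its WT counts were 5 or fewer), 10 with the fibroblast marker level in the model (9.73%) and 1, Mmp9, among mice whose names carry a number of 222 or above (3.65%; 5 WT and 3 Pparg-/-epi mice). Leaving out 1 mouse gave 4 to 13, and the share of all genes was worked out only without WT replicate 1 (10.6%) or WT replicate 2 (15.5%). Mmp9 and Adamts14 were called in 12 of 12 other planned settings, and Adamts1 and Adamtsl5 in 11, the exception being female mice alone (1.34 and -0.91, adjusted p = 0.0525 for each). One of these settings was the main fit without a minimum fold change, which every altered member passes by construction, so it adds no support. Timp1 was lost in female mice alone (1.88, adjusted p = 0.128), with the number in the mouse names in the model (0.0752) and with the growing hair follicle marker level in the model (0.151), and Adam1a in female mice alone (-1.21, adjusted p = 0.0590) and with the follicle level (0.0806). The members rising with RIN went from 9 to 0 with the fibroblast (slopes 0.46 to 1.38) or the growing hair follicle level (0.55 to 1.80) in the model, and to 0 to 16 when 1 mouse was left out. No share of all genes was worked out for these RIN fits. The marker levels, the mouse-name subset and the RIN count were added after the data were seen. The interaction count was 0 in every fit that left out a mouse.

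Reversals concerned unaltered genes. With sex in the model the log2 fold change was 0.0083 for Adamts2 and 0.53 for Mmp3. With age it was 0.20 for Adamts2, 0.19 for Mmp3, 0.61 for Timp2 and 0.35 for Pparg. In female mice it was 0.61 for Adamts2, 1.45 for Mmp3 and 0.27 for Timp2. With the mouse-name number it was -0.042 for Mmp14 and -0.12 for Timp3, and among names of 222 or above -0.035 for Adam10, 0.40 for Mmp3 and -0.40 for Timp3. With the fibroblast level it was 0.016 for Mmp3 and 0.0051 for Timp2, and with the follicle level 0.56 for Mmp3 and -0.031 for Timp3. Leaving out 1 mouse gave -0.42 to 0.33 for Adamts2, -0.37 to 0.70 for Mmp3, -0.25 to 0.45 for Timp2 and -0.32 to 0.86 for Pparg. The causes were not tested. No paired analysis was possible because the labels pair no WT mouse with a Pparg-/-epi mouse: the groups share no replicate number, and 1 number in the mouse names, 222, is shared, by 1 mouse of each group. Low counts limit the members with under 1 CPM.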
